A study of Mus musculus with 12 samples.

Results

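Among the Jmjd2a peaks of mouse leukaemic progenitors, 907 lay at a promoter and overlapped no Jmjd2c peak. They were chosen by 2 measured calls. A Jmjd2a peak had to lie within 1000 bp of a named transcription start site, and it had to share not even 1 bp with a Jmjd2c peak. The authors' lists hold 8977 Jmjd2a and 10521 Jmjd2c peaks, and 6908 Jmjd2a peaks lie that close to a named start. The 907 peaks are therefore 13.1% of the Jmjd2a promoter peaks (exact 95% binomial interval 12.3% to 13.9%) and 10.1% of all Jmjd2a peaks. They are called Jmjd2a-alone peaks below, for the calls and not for the protein: a site without a Jmjd2c call can still carry Jmjd2c under the threshold of calling. The other 6001 Jmjd2a promoter peaks, which overlap Jmjd2c, are called shared.

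The study mapped Jmjd2a (also named Kdm4a) and Jmjd2c (Kdm4c) by chromatin immunoprecipitation and sequencing in mouse L-GMP, which are granulocyte-macrophage progenitors carrying the leukaemic fusion MLL-AF9. The cell lines came from leukaemic mice of C57BL/6 background with the genotype Jmjd2a/b/c f/f;Rosa26::CreERT2. All groups carry the floxed alleles and the Cre, which is expressed from the Rosa26 locus and activated by 4-hydroxytamoxifen (OHT). The cells were kept in RPMI with 20% serum and 10 ng/ml interleukin-3, and were either untreated (Ctrl) or given 500 nM OHT for 96 h to delete the floxed alleles. The 12 libraries form 8 groups: Jmjd2a and Jmjd2c with 1 library in each condition, and trimethylated lysine 9 and lysine 36 of histone H3 with 2 libraries in each condition. How many mice or clones gave the lines, and whether an OHT-treated line without floxed alleles was made, is not stated in the labels. The tables hold 1 list of peaks per protein with no value per library, so depth is unknown, neither the OHT effect nor the histone marks could be tested, and no replicate spread exists for any value. Which libraries entered each list is not given either. Peaks and genes are not replicates, so values are described with 95% intervals that cover counting error only, and no test was run.

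Jmjd2a and Jmjd2c are closely related enzymes that demethylate histone H3 at lysine 9 and at lysine 36. Both carry paired Tudor domains, which bind trimethylated lysine 4 of the same histone, a mark of active and poised CpG-island promoters. Many promoters of developmental regulators are CpG islands that Polycomb proteins keep silent in cells that do not use them. The question asked here was which promoters were called for Jmjd2a and not for Jmjd2c, and what their genes, positions and sequences have in common.

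The upstream sequences of a few promoters give examples of the DNA just before the starts at these peaks. They are the 250 bases before the start site from the RefSeq promoter table (build GRCm38.p6, the primary assembly of mm10), printed along the gene's own strand with each CpG dinucleotide in capitals. Ung (uracil DNA glycosylase), Cacna1b (a neuronal calcium channel), Neo1 (the receptor neogenin) and Kcna3 (a voltage-gated potassium channel) belong to the widest Jmjd2a-alone peaks.
Ung, chr5:114130185-114130434, plus strand: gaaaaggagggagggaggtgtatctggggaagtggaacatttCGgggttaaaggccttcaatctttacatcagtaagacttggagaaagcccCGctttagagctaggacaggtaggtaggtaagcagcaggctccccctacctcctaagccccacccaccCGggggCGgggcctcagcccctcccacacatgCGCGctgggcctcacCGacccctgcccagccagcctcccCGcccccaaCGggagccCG
Cacna1b, chr2:24763153-24763402, minus strand: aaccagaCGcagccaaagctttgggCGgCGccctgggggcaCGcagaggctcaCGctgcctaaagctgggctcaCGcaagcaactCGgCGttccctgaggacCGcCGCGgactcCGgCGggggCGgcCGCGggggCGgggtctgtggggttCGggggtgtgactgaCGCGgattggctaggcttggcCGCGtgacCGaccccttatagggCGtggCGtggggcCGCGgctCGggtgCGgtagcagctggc
Neo1, chr9:59036442-59036691, minus strand: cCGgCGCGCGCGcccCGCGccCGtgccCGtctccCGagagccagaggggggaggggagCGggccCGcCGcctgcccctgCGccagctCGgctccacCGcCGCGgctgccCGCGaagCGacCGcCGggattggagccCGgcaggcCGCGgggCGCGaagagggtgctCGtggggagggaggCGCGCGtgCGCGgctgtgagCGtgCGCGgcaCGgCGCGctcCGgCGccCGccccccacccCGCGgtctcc
Kcna3, chr3:107035912-107036161, plus strand: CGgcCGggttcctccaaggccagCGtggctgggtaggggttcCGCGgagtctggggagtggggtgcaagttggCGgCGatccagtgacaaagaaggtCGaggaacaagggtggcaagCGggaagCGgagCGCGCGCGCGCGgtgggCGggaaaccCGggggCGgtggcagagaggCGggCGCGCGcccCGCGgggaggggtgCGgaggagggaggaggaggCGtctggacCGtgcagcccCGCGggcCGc

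These 250 bases hold 10 CpG in Ung, 29 in Cacna1b, 45 in Neo1 and 31 in Kcna3. The ratio of observed to expected CpG, which is near 1 where CpG has not been lost, was 0.41, 0.92, 1.04 and 1.02 in the same order. These ratios are for the 250 printed bases only. The CpG classes given further below use windows of 300 bases, with 50 after the start, so a gene's ratio there can differ. For comparison, Foxc1, a forkhead transcription factor gene, has one of the widest shared peaks. Svep1 (an extracellular adhesion protein) and Nlrp1a (an inflammasome sensor) were chosen after their values were seen, as wide Jmjd2a-alone peaks over CpG-poor starts.
Foxc1, chr13:31806396-31806645, plus strand: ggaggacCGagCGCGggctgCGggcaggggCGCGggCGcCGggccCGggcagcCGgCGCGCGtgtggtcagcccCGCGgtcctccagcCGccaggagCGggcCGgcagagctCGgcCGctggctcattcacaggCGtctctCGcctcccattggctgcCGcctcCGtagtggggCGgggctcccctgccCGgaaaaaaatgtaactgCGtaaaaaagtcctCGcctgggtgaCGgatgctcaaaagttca
Svep1, chr4:58206597-58206846, minus strand: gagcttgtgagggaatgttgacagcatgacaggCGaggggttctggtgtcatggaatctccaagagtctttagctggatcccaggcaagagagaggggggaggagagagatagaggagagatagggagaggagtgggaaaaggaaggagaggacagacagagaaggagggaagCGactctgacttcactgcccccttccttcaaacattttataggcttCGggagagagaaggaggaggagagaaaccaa
Nlrp1a, chr11:71144705-71144954, minus strand: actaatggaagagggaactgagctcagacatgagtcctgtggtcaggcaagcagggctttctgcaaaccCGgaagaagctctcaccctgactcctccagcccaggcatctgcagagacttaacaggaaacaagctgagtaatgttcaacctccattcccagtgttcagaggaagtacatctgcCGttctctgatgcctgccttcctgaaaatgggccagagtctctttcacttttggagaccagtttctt

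The Foxc1 sequence holds 29 CpG, the same number as Cacna1b, whereas Svep1 holds 3 and Nlrp1a 2. Their ratios over the printed bases were 0.93, 0.22 and 0.13. A peak called for Jmjd2a alone was thus seen both over dense CpG and over DNA with almost none.

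The widest Jmjd2a-alone peak covered the start of Foxq1, a forkhead transcription factor gene, over 2436 bp (chr13:31557302-31559737 in mm10, across its 5′ UTR and coding exon). The next was Sfmbt2, a Polycomb group gene, with 2325 bp (chr2:10372352-10374676), followed by Ung with 2054 bp (chr5:114130131-114132184). Hmga2, an architectural chromatin protein gene that is active in embryos and many tumours, had 2048 bp (chr10:120475602-120477649), over an intron and its 5′ UTR and coding exons. Width is the extent of a called region and not its height. Of these 4, Foxq1, Sfmbt2 and Hmga2 lay 246464, 291100 and 46300 bp from the nearest Jmjd2c peak, whereas a Jmjd2c peak began 1675 bp beside the Ung peak.

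The other 11 of the 15 widest ranged from 1651 to 1902 bp. They include Cacna1b (1894 bp) and Kcna3 (1651 bp), both ion channel genes. Spry1, an inhibitor of receptor tyrosine kinase signalling, had 1879 bp, and Zic5, a zinc finger factor gene of the neural tube, 1812 bp. Neo1 had 1801 bp, Snx18, a sorting nexin, 1767 bp, Ndrg1, a stress response gene, 1740 bp, and the tight junction gene Cldn23 1652 bp. The remaining 3 are the RIKEN genes 9130024F11Rik (1902 bp), 4930578M01Rik (1802 bp) and C920009B18Rik (1655 bp). Of all 15, 13 covered their start site. The exceptions are Zic5 and 9130024F11Rik, whose starts lay 428 and 676 bp outside the peak. 

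Most Jmjd2a-alone peaks were far narrower than these. Their median width was 615 bp (95% interval 591 to 648), with quartiles at 453 and 835.5 bp and a range from 190 to 2436 bp. The median was 791 bp (779 to 804) for shared Jmjd2a peaks and 1243.5 bp (1216 to 1271) for the 3476 Jmjd2c promoter peaks without Jmjd2a. The share of Jmjd2a promoter peaks without Jmjd2c was 19.6% among those up to 500 bp wide (295 of 1503), 14.2% above that and up to 1000 bp, 6.76% up to 1500 bp and 5.52% above 1500 bp (23 of 417). Broad Jmjd2a regions without a Jmjd2c call were thus few. A wider peak also has more bases with which to meet a Jmjd2c peak, so width is not independent of the choice.

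**Figure D1:**
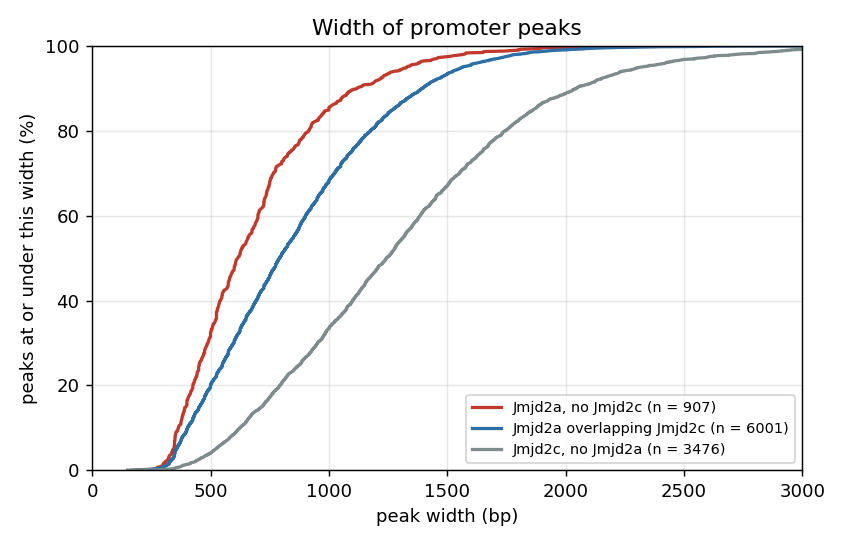
Cumulative share of promoter peaks (vertical axis, %) at or under each width (horizontal axis, bp, shown to 3000) for 907 Jmjd2a-alone, 6001 shared Jmjd2a and 3476 Jmjd2c promoter peaks without Jmjd2a. The Jmjd2a-alone curve lies to the left of the others, with medians of 615, 791 and 1243.5 bp.

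Of the Jmjd2a-alone peaks, 522 covered the nearest start site (57.6%, 54.3% to 60.8%), against 68.1% (66.9% to 69.2%) of the shared peaks. A further 215 lay up to 250 bp from it, 89 over 250 and up to 500 bp, and 81 over 500 and up to 1000 bp. The last of these classes made up 8.93% (7.16% to 11.0%), against 2.92% (2.51% to 3.37%) of the shared peaks. The centres had a median of 86 bp downstream of the start, against 151.5 bp in shared peaks. Peaks over a 5′ UTR made up 69.6% (66.5% to 72.6%) against 82.4% (81.4% to 83.4%), and peaks over an intron 60.9% against 80.5%. Fewer Jmjd2a-alone peaks had annotated features on both strands (11.6%, 9.57% to 13.8%, against 20.6%, 19.6% to 21.7%). More than 1 gene shared the nearest start in 2.09% against 5.80%. The sets also differ in median width (615 against 791 bp), and these shares were not matched for width. The 145 peaks with Jmjd2c within 1000 bp, described below, weigh on these shares. Of the 676 peaks with Jmjd2c over 10000 bp away, 67.9% covered the start, about the share of the shared peaks, and 4.29% lay over 500 bp from it, against 31.7% of the 145. A 5′ UTR lay under 79.0% of the 676, an intron under 66.7%, and features on both strands under 8.28%. Over all 907 peaks, starts with noncoding accessions alone made up 4.96% (45 peaks; 3.64% to 6.58%) against 2.72% (2.32% to 3.16%).

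At the threshold of distance, the last peaks inside were at Zmiz1, 984 bp from the start, Tctex1d4 at 997 bp and Snx6 at 1000 bp. The nearest outside were at Pou3f2 and Pth2, each 1007 bp away, and Efnb2 at 1012 bp. At the threshold of overlap, the shared peaks that met Jmjd2c by the fewest bases were at Uxs1 (3 bp), Ubap2 (8 bp) and Uhrf1bp1l (11 bp). The members with the shortest gap were at Tmem214 (4 bp), 0610012G03Rik and Rab39 (10 bp each), and Npm1 and Tmem209 (11 bp each). Peaks on either side of that line thus differ by a few bases.

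Jmjd2c was usually over 10000 bp away. The peaks were chosen for not overlapping Jmjd2c, so the gap continues the measure of choice and is only described. No gap for other promoters is given for comparison. The gap to the nearest Jmjd2c peak had a median of 36411 bp (32296 to 42684), with quartiles at 9567.5 and 96937.5 bp. It exceeded 10000 bp for 676 peaks (74.5%, 71.6% to 77.3%) and 100000 bp for 221 (24.4%). The longest gaps were 3718112 bp at Pcdh7, a protocadherin gene that shares its start region with 4932441J04Rik, and 2623562 bp at Ncam2, a neural adhesion gene. Nova1, a neuronal splicing factor gene, lay 2549359 bp and Unc5d, a netrin receptor gene, 1891658 bp from Jmjd2c. A separate peak named for 4932441J04Rik alone, beside the Pcdh7 peak, lay 3717175 bp away.

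A smaller class sat beside Jmjd2c. A Jmjd2c peak lay within 1000 bp of 145 peaks (16.0%, 13.7% to 18.5%), and 86 more had one over 1000 and up to 10000 bp away. For 141 peaks the named start itself lay within 1000 bp of a Jmjd2c peak, and for 97 it lay under one. The number of peaks whose start stands in the authors' table of co-bound start sites was also 141, and it was 5996 of 6001 for shared peaks. That table gives windows that begin 1000 bp from each start, a like distance, so the equal counts are not independent. Some genes with Jmjd2c this close, such as Srsf1 and Atp5g1, have a shared Jmjd2a peak as well.

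**Figure D2:**
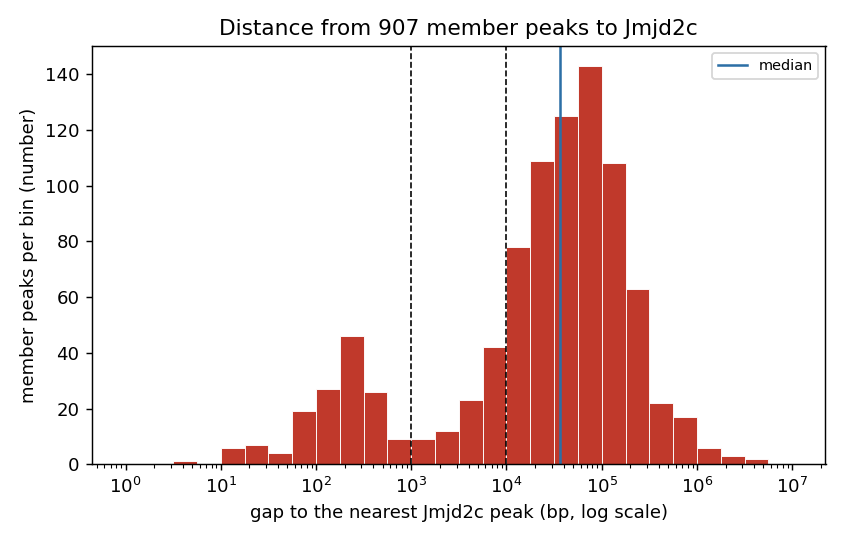
Number of Jmjd2a-alone peaks (vertical axis) by gap to the nearest Jmjd2c peak (horizontal axis, bp, log scale, 4 bins per factor of 10). Dashed lines mark 1000 and 10000 bp and the blue line the median of 36411 bp. Most peaks lie beyond 10000 bp, and 145 form a separate, lower rise at or under 1000 bp.

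The peaks beside Jmjd2c differed in place from the distant ones. Of the 145, only 14 covered their start site (9.66%, 5.38% to 15.7%), against 459 of the 676 distant ones (67.9%, 64.2% to 71.4%). Their centres lay at a median of 432 bp upstream of the start (median position -432 bp), and those of the distant ones 111.5 bp downstream. Of those that missed the start and had a strand, 29 of 128 lay on the gene's side (22.7%, 15.7% to 30.9%), against 131 of 211 distant ones (62.1%, 55.2% to 68.7%). Their median width was 471 bp (443 to 520) against 674 bp (638 to 700), and 20.0% against 79.0% lay over a 5′ UTR. In position the class in between was closer to the distant one, with 57.0% over the start (45.8% to 67.6%) and centres 176.5 bp downstream. In other features it was closer to the near one. Regions annotated as promoter lay under 38.4% (28.1% to 49.5%), against 33.1% near and 7.25% distant. Features on both strands lay under 24.4% (15.8% to 34.9%), against 19.3% and 8.28%. The Tmem214 peak, for example, ended 71 bp short of a start that lay under Jmjd2c. Npm1, the gene of an abundant nucleolar protein, is among the 14 whose peak covered the start, and Jmjd2c lay 11 bp beyond the edge of that peak. By the rule of choice, a Jmjd2c peak over the start leaves room only beside it, so this position is in part built in.

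Coverage was counted over 868 start sites with a known strand. Jmjd2a peaks covered at most 71.5% of them, 200 bp downstream of the start. Jmjd2c peaks covered at most 13.5%, 300 bp downstream. At 5459 starts of shared peaks the maxima were 84.2% for Jmjd2a and 97.7% for Jmjd2c, both 200 bp downstream. The low and high coverage by Jmjd2c in these sets restates how they were chosen. Counted in steps of 100 bp, Jmjd2a had its highest coverage at the same step in both sets of promoters. At the Jmjd2a-alone starts the step at 100 bp was nearly as high (71.1%). The median centres of the peaks differed, at 86 against 151.5 bp downstream.

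**Figure D3:**
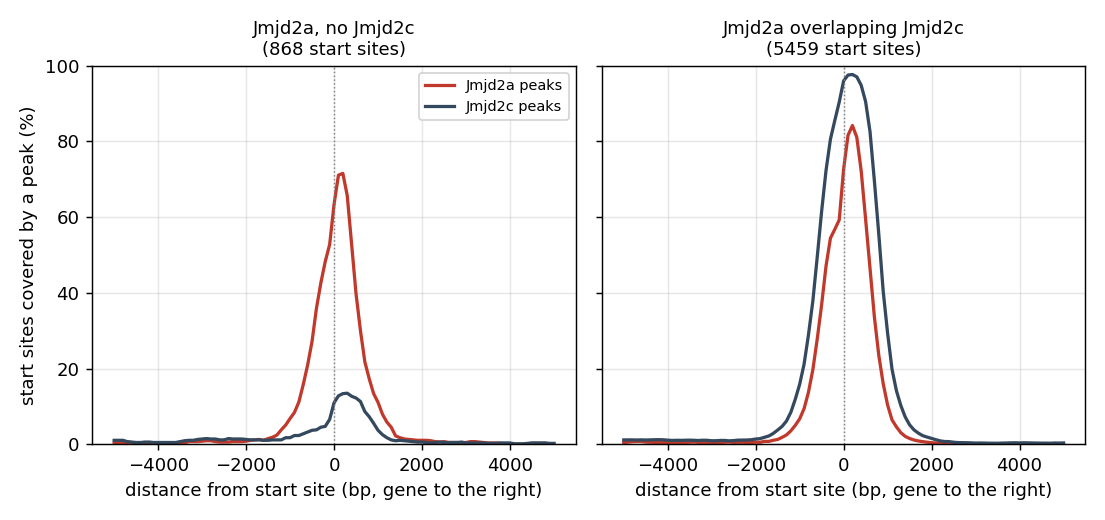
Share of start sites (vertical axis, %) covered by a Jmjd2a peak (red) or a Jmjd2c peak (dark) from 5000 bp upstream to 5000 bp downstream (horizontal axis, gene to the right). Left, 868 starts of Jmjd2a-alone peaks, with Jmjd2a up to 71.5% and Jmjd2c up to 13.5%. Right, 5459 starts of shared peaks, with 84.2% and 97.7%.

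The 907 peaks name 902 genes, of 6783 genes with a Jmjd2a promoter peak. For 830 genes all Jmjd2a promoter peaks lacked Jmjd2c, which is 12.2% (11.5% to 13.0%), and 72 genes had a shared peak as well. This 12.2% is the background for the lists that follow, and the median of the widest member peak over the 902 genes was 624.5 bp. The lists follow earlier results of these data, so a high share is a description and not independent evidence.

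Many developmental transcription factor genes set cell identity in the embryo. Among the lists not added later that held at least 10 genes with a Jmjd2a promoter peak, theirs had the highest share. Of 57 in the list with a Jmjd2a promoter peak, 24 had Jmjd2a-alone peaks and no others (42.1%, 29.1% to 55.9%). Of these 24, 23 had no Jmjd2c within 1000 bp of the start. Most of the whole set shares that trait, as only 15.5% of the 907 peaks had Jmjd2c that close to the named start. The median of the widest peaks of the 24 genes was 738.5 bp. After Foxq1 the widest were Nkx6-1 (1552 bp) and Nkx6-2 (1525 bp), homeobox genes of neural and endocrine progenitors. They were followed by Klf16 (1461 bp), a Krüppel-like factor gene, and Pou4f1 (1367 bp), a POU factor gene of sensory neurons. Jmjd2c lay 98676, 100833, 12211 and 53173 bp from these 4. Further down, at 400 to 1093 bp, the list holds Hox, Tbx, Sox, Lhx, Dlx and neurogenin genes, named here after their values were seen. The Hox genes were Hoxa13, Hoxd8 and Hoxd13, with peaks of 836, 739 and 400 bp.

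Genes of blood progenitors gave small counts. Of 7 progenitor genes with a Jmjd2a promoter peak, 3 had only Jmjd2a-alone peaks (42.9%, 9.90% to 81.6%), an interval that includes the background. They are Flt3, a receptor tyrosine kinase of progenitors (696 bp, over its start, 28525 bp from Jmjd2c), Cebpa and Tal1. Cebpa, which drives granulocyte differentiation, had a pair of separate peaks of 527 and 404 bp that end 665 and 38 bp before the start. Tal1, a stem cell and erythroid factor gene, had a peak of 525 bp that lies 176 bp inside the gene. Of 9 target genes of MLL fusions, Hmga2 and Flt3 were in the set (22.2%, 2.81% to 60.0%). None of 15 genes of interleukin-3 receptor and JAK-STAT signalling was, which allows a share of up to 21.8%. Lists of granulocyte and macrophage genes and of lymphoid, erythroid and megakaryocyte genes each had 1 gene with a Jmjd2a promoter peak, and it was shared. Germ cell genes gave 0 of 3, and of 2 neuronal, muscle, liver or epithelial markers Cdh1, the epithelial cadherin gene, was in the set. Peaks carry no level of expression, so these lists do not check the identity of the cells.

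None of 51 mitochondrial ribosomal protein genes had only Jmjd2a-alone peaks (up to 6.98% by the exact interval), and neither had any of 45 respiratory chain genes (up to 7.87%), 33 spliceosome genes (up to 10.6%) or 26 proteasome genes (up to 13.2%, which includes the background). Atp5g1, a subunit gene of ATP synthase, and Srsf1, a splicing factor gene, had a Jmjd2a-alone peak beside a shared one, with Jmjd2c 219 and 74 bp away. Zinc finger genes of the Zfp series, many of them repressors of repeats, gave 9 of 207 (4.35%, 2.01% to 8.09%), also under the background. The widest of these were Zfp819 (1080 bp), Zfp719 (978 bp), Zfp35 (872 bp), Zfp658 (623 bp) and Zfp612 (603 bp). In BTB zinc finger genes the count was 2 of 26 (Zbtb7c and Zbtb46), and in kinesin, dynein and centrosome genes 3 of 51 (Dnah1, Kif26b and Kif21a). The cilium list, made of the Ift, Bbs and Ttc name series, gave 2 of 34. These are Ttc39b and Ttc9, which entered by their name.

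Cytosolic ribosomal protein genes gave 7 of 25 (28.0%, 12.1% to 49.4%). The interval reaches down to the background. They include Rpl37a (725 bp), Rpl24 (608 bp), Rps6ka5 (500 bp) and Rpl22l1 (471 bp). Rps6ka5 encodes a kinase and entered the list by its name. Jmjd2c lay 205 bp from the Rpl22l1 peak and 126117 bp from the Rpl37a peak, and 4 of the 7 genes had none within 1000 bp of their start. Over all 907 peaks, 15.5% had Jmjd2c that close to the start.

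Solute carriers and ubiquitin genes gave 11 of 105 each (10.5%) and Tmem genes 9 of 104 (8.65%). The widest in these were Slc12a7 (1008 bp), Ube2e2 (854 bp) and Tmem109 (990 bp). DNA replication genes gave 2 of 22, the licensing factor gene Mcm10 and the GINS subunit gene Gins4. Damage response genes gave 1 of 17 (Lig4, a DNA ligase gene), and enzymes and readers of histone lysine methylation gave 1 of 21. That gene is Suv39h1, which encodes a methyltransferase for lysine 9, with a 388 bp peak 123 bp from Jmjd2c. Of 11 apoptosis genes there were 3 (27.3%, 6.02% to 61.0%): Bok, Pmaip1 and Casp1. Of 6 histone genes there were 2, H2afz and H1fx. The single vomeronasal receptor gene with a Jmjd2a promoter peak, Vmn2r29, was in the set. RIKEN cDNA genes gave 42 of 323 (13.0%) and predicted Gm genes 15 of 78 (19.2%, 11.2% to 29.7%).

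**Figure D4:**
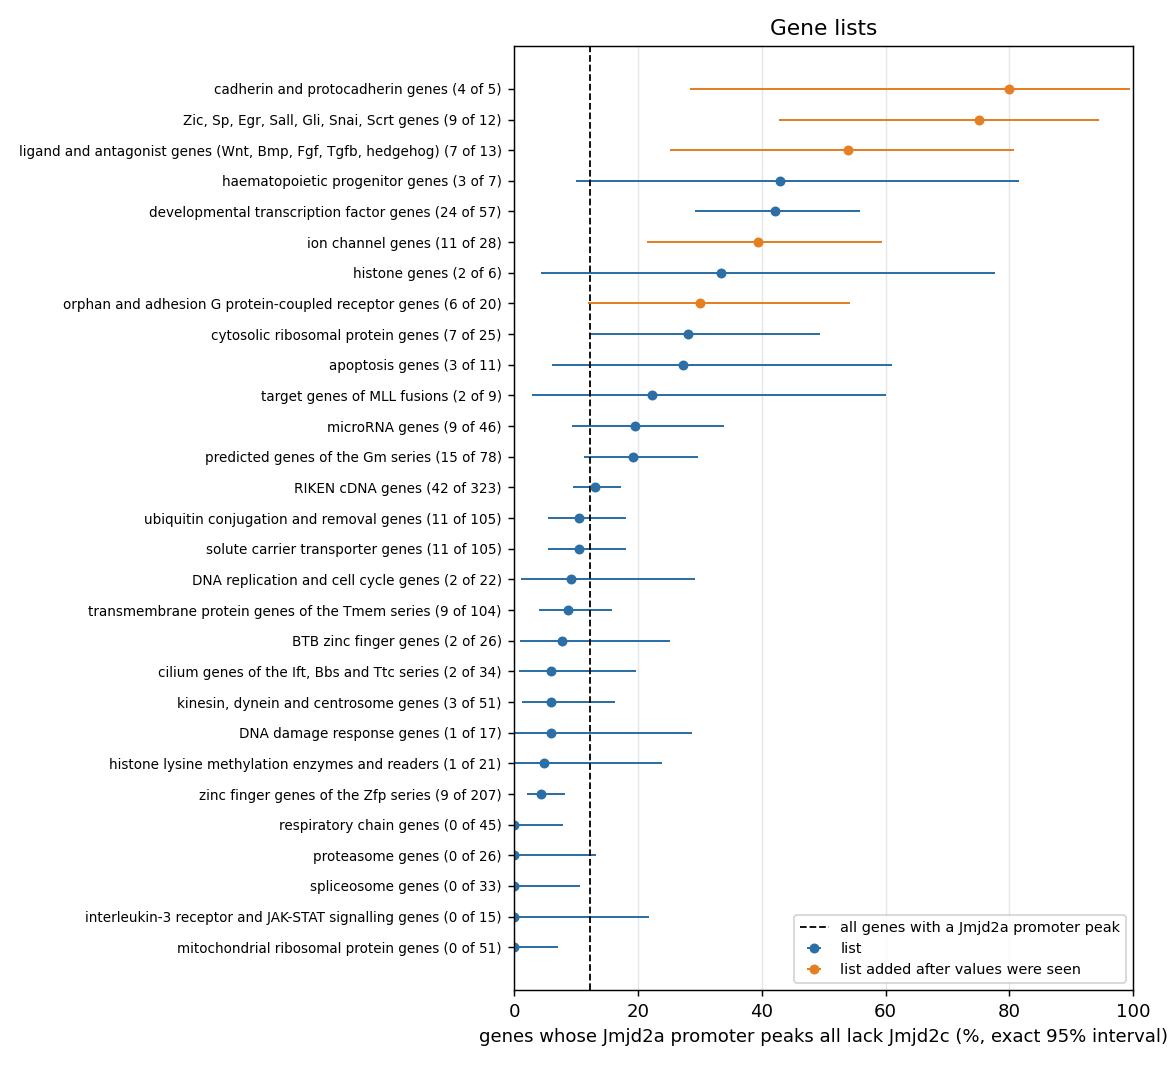
Share of genes whose Jmjd2a promoter peaks all lacked Jmjd2c (horizontal axis, %) with exact 95% intervals, for the reported lists with at least 5 genes with a Jmjd2a promoter peak; counts stand beside each name and the dashed line marks 12.2% over all genes. Developmental transcription factors lie at 42.1% and mitochondrial ribosomal proteins at 0 of 51; orange lists were added after values were seen.

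MicroRNA genes with only Jmjd2a-alone peaks numbered 9 of 46 (19.6%, 9.36% to 33.9%). None of the 9 had Jmjd2c within 1000 bp of the start, which only 15.5% of all 907 peaks had. For a microRNA, the named start is the end of the annotated hairpin and need not be where transcription begins. The widest was a peak of 1401 bp over both Mir132 and Mir212, neighbouring hairpins in 1 cluster (chr11:75172552-75173952), with Jmjd2c 4354 bp away. Their mature 3′ arms, from the RefSeq table, are shown with the seed, bases 2 to 8, in capitals.
miR-132-3p: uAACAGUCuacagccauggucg
miR-212-3p: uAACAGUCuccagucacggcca

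Both arms share the whole seed. Mir1199 followed with 1185 bp, Mir935 with 1032 bp and Mir5103 with 600 bp.

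The promoter windows of these peaks were matched in the RefSeq table for 711 of 882 peaks outside chromosome 18 (80.6%), which gave 693 windows of 300 bases, 250 before and 50 after the start. Chromosome 18 was not used for sequence. For the classes with Jmjd2c over 1000 bp away, up to 10000 bp and beyond, fewer than 80% of peaks were matched (79.8% and 79.0%), so sequence was not compared between those classes. Of the 693 windows, 55 (7.94%) are also the window of a shared peak. The median ratio of observed to expected CpG was 0.77 (0.75 to 0.79), against 0.82 (0.81 to 0.83) in 4511 windows of shared peaks, 0.79 (0.78 to 0.80) in 2743 of Jmjd2c without Jmjd2a and 0.38 in all 32851 windows of the table. GC content had medians of 63.3%, 62.7%, 61.7% and 52.7% in the same order.

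Windows rich in CpG, with a ratio over 0.75 and GC over 55%, made up 49.5% (343 windows; 45.7% to 53.3%), against 57.2% (55.7% to 58.6%) for shared peaks and 22.0% for all promoters. Windows with a ratio under 0.48 made up 15.9% (110 windows; 13.2% to 18.8%), against 6.30% (5.60% to 7.04%) for shared peaks and 56.8% for all promoters. Seen from the other side, 30 of 69 Jmjd2a promoter peaks with a ratio up to 0.25 lacked Jmjd2c (43.5%, 31.6% to 56.0%). The share fell to 24.2% from 0.25 to 0.48, 13.4% from 0.48 to 0.75, 11.5% from 0.75 to 1 and 9.43% above 1 (84 of 891; 7.59% to 11.5%). Peaks matched to CpG-poor windows had a median width of 550 bp (491 to 624), and those matched to CpG-rich windows 658 bp (600 to 702). A window lies at the start, which 57.6% of the 907 peaks cover. Its CpG therefore need not be that of the DNA under the peak. The sequences of Svep1 and Nlrp1a printed above are from the low end, with peaks of 1188 and 1127 bp. Their full windows had ratios of 0.30 and 0.10. The full window of Ung was not among those under 0.48, although its printed bases gave 0.41. Wider peaks matched to CpG-poor windows are those of 9130024F11Rik, C920009B18Rik, C77370 (1458 bp) and the imprinted gene Peg3 (1271 bp). The 9130024F11Rik and Peg3 peaks lay 676 and 168 bp from their starts.

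**Figure D5:**
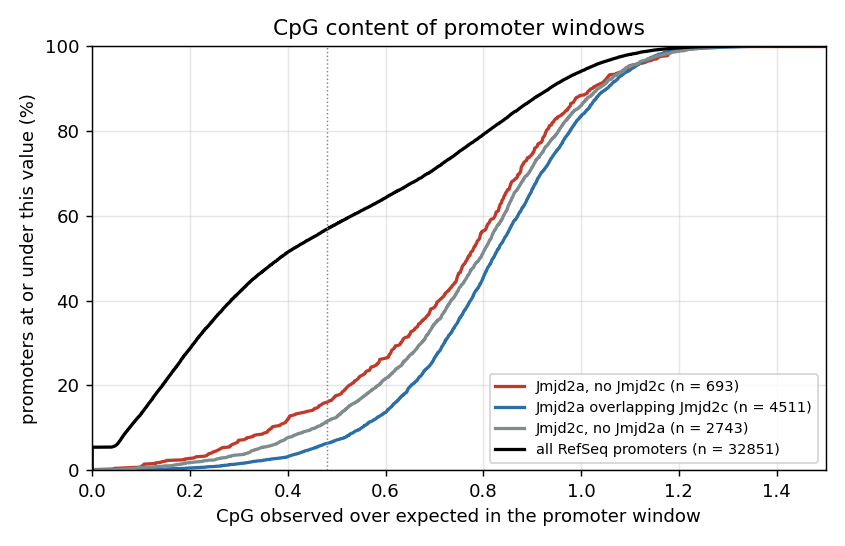
Cumulative share of promoter windows (vertical axis, %) at or under each ratio of observed to expected CpG (horizontal axis, shown to 1.5) for Jmjd2a-alone, shared and Jmjd2c-without-Jmjd2a promoters and for all RefSeq promoters. The dotted line marks 0.48, under which 15.9% of Jmjd2a-alone and 6.30% of shared promoter windows fall.

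Short motifs were counted on both strands of the 300-base windows. The ETS core CCGGAAG, the site of a large family of activators of housekeeping genes, stood in 64 of 693 Jmjd2a-alone windows (9.24%, 7.18% to 11.6%). Its share was 22.0% (20.8% to 23.2%) for shared peaks, 20.7% (19.2% to 22.2%) for Jmjd2c without Jmjd2a and 8.86% for all promoters. A further 4 motifs that are common in housekeeping promoters were also rarer in Jmjd2a-alone than in shared windows. GCATGCGC, a site of NRF1, stood in 3.75% (2.47% to 5.45%) against 6.85% (6.13% to 7.63%) for shared peaks and 2.71% of all promoters. AAGATGGC, a site of YY1, stood in 2.31% (1.33% to 3.72%) against 5.19% (4.56% to 5.88%) and 2.75%. TCTCGCGA, a site of BTB zinc finger proteins, stood in 1.01% (0.407% to 2.07%) against 2.73% (2.27% to 3.24%) and 0.995%, and ACTACAA, a site of ZNF143, in 2.45% (1.44% to 3.90%) against 4.74% (4.14% to 5.41%) and 3.24%. For these 5 motifs the intervals of Jmjd2a-alone and shared windows did not overlap.

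For the other 11 motifs the intervals of both sets overlapped, which does not show that the shares are equal. The GC box GGGCGG of Sp and Klf factors stood in 73.0% (69.5% to 76.3%) of Jmjd2a-alone and 71.2% of shared windows, against 35.7% of all promoters. The windows of Ung, Cacna1b, Neo1, Kcna3 and Foxc1, printed above in part, hold it, and those of Svep1 and Nlrp1a do not. Among wide peaks whose sequences were not printed, Snx18, Kcng3 and Camk2d hold it. The windows of 4930578M01Rik and of Jag1, a shared peak of 3450 bp, lack it. Their CpG ratios over the 250 bases before the start were 0.59 and 0.98. The CCAAT box stood in 38.0% and 39.9%, the E-box CACGTG in 11.3% and 11.2% and the TATA box TATAAA in 5.77% and 4.94%. The AP-1 site TGANTCA stood in 5.48% (3.91% to 7.45%) and 3.55% (3.03% to 4.13%) against 7.81% of all promoters. The CRE motif TGACGTCA (2.02% and 3.90%) and the E2F-type site TTTNGCGC (1.44% and 2.77%) were rarer by their point values, within overlapping intervals. The other 4 motifs searched were GAGGAAGT (2.89% and 2.88%), TGTGGTT (2.60% and 2.95%), TTGCNNAA (8.23% and 6.61%) and TTCNNNGAA (5.05% and 6.78%). These shares pool all Jmjd2a-alone windows. In the 124 windows of peaks with Jmjd2c within 1000 bp, the CCAAT box stood in 54.0% (44.9% to 63.0%) and CCGGAAG in 16.1% (10.1% to 23.8%). The CpG within CCGGAAG, GCATGCGC and TCTCGCGA also counts toward the CpG ratio, and a match is not a bound site.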

How the data were processed

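Per the file headers, the authors deposited 1 list of peak positions for Jmjd2a and 1 for Jmjd2c, in bp, with annotated features, the nearest start site and its distance. A further table lists start sites they call co-bound. No height, score, p-value, count or value per library was given. The submitters' processing notes name Bowtie 0.12.7, SAMtools, bedtools 2.25.0 and build mm10. Caller, cutoff, control library and any pooling are not given in the sources used.

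Positions were read as 0-based with an open end and are printed counting from 1. Gaps were measured between peak edges. Strand came from the matched RefSeq promoter window, or else from the peak's own strand column where it gave a single one. Shares carry exact (Clopper-Pearson) 95% intervals and medians order-statistic ones. Gaps, overlaps, motif matches and the CpG ratio were tested on simulated or known input, and strand, promoter matching and gene lists were not. Python 3.11.15, numpy 2.4.6, pandas 2.3.3, scipy 1.17.1 and matplotlib 3.10.9 were used.

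The peaks, the gene lists and the motifs were chosen with earlier results of these data known. Named genes are the 15 widest peaks, the 5 longest and 5 shortest gaps, the 3 nearest each threshold and up to 5 of the widest in each list, width standing in for a score. Of the sequences this rule allows, 5 were printed, and Svep1 and Nlrp1a were added. Name patterns take some genes of other function. Some genes and 1 list are not reported here. Alternatives were promoter distances of 500 and 2000 bp, an overlap of 50% of the shorter peak, Jmjd2c within 1000 bp counted as shared, the wider 50% of either list and no X or Y.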

Additional observations from a re-analysis of the deposited data

How the results depend on the processing

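Of 56 values (7 results under 8 alternatives), 31 stayed within the interval, or within 1.5 times the count, of the main value and 25 moved. Some of the 25 are built in, because a filter on width or distance acts on the same measure. Keeping only the wider 50% of Jmjd2c peaks moved the count furthest: 3112 peaks then lacked Jmjd2c (45.0% of the Jmjd2a promoter peaks), with a median width of 726 bp, 69.6% over the start, a median gap of 78454.5 bp and 3.43% of genes in the Zfp series, against 1.22%. The set therefore depends on which Jmjd2c peaks are listed. With the wider 50% of Jmjd2a peaks, 354 peaks remained in the set (9.15%), with a median of 919.5 bp, 76.6% over the start, a gap of 54932.5 bp and a CpG ratio of 0.81. Counting Jmjd2c within 1000 bp as shared gave 11.0%, 658 bp, 66.7% over the start and 53086.5 bp. Leaving out peaks whose start has Jmjd2c within 1000 bp, an alternative added after seeing the data, gave 11.1%, 658 bp, 66.6% and 52717.5 bp. An overlap of at least 50% gave 14.4% and a gap of 31094.5 bp. A promoter distance of 2000 bp gave 14.1% and 52.2% over the start, and 500 bp gave 63.2% over the start. Leaving out X and Y moved none of the 7. No paired analysis was possible because the tables hold no value per library.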

Other observations

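A group of 5 lists was added after values were seen, so their shares only describe what was noticed. Of 28 ion channel genes with a Jmjd2a promoter peak, 11 had only peaks without Jmjd2c (39.3%, 21.5% to 59.4%, against 12.2% over all genes). None of the 11 had Jmjd2c within 1000 bp of the start, which only 15.5% of all 907 peaks had. Beside Cacna1b and Kcna3 the 11 include Kcng3 (1577 bp), Cacna1c (982 bp) and Kcna7 (897 bp). Of 12 zinc finger factor genes of the Zic, Sp, Egr, Sall, Gli, Snai and Scrt families there were 9 (75%, 42.8% to 94.5%). Zic5 (1812 bp), Sp9 (1500 bp), Snai1 (1180 bp), Sall3 (929 bp) and Scrt1 (801 bp) were the widest. Ligands and antagonists of the Wnt, Bmp, Fgf, Tgfb and hedgehog pathways gave 7 of 13 (53.8%, 25.1% to 80.8%). Spry1, the Bmp antagonist gene Nog (1456 bp), Wnt9b (1200 bp), Fgf9 (759 bp) and Wnt2b (681 bp) led that list. Cadherin genes gave 4 of 5 (Pcdh7, Cdh1, Cdh4 and Pcdh19), and orphan and adhesion receptor genes 6 of 20 (30.0%, 11.9% to 54.3%), with Gpr176 (1570 bp) and Gpr155 (1329 bp) the widest.

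By chromosome, the share of Jmjd2a promoter peaks without Jmjd2c ran from 9.46% on chromosome 17 (30 of 317; 6.48% to 13.2%) to 17.2% on chromosome 19 (38 of 221; 12.5% to 22.8%). Chromosome 11 held 86 of 534 (16.1%, 13.1% to 19.5%). On X it was 13 of 101 (12.9%), and on Y 0 of 2. The interval of every chromosome includes the 13.1% over all Jmjd2a promoter peaks, so these shares set no chromosome apart. Another Jmjd2a peak lay within 1000 bp of 113 of the 907 peaks (12.5%, 10.4% to 14.8%), against 17.4% (16.4% to 18.3%) of the shared ones.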
